A study of Mus musculus with 18 samples.

Results

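The 10 core genes of the circadian clock, Arntl (also called Bmal1), Clock, Npas2, Per1, Per2, Per3, Cry1, Cry2, Nr1d1 and Dbp, were chosen by name and taken from the count and TPM tables of left ventricles, where they are 10 of 51435 listed genes and 10 of the 24804 genes tested. TPM scales a transcript's level to its length and to the library, so it can be compared between genes. The study asked how a loss of the N-terminal part of the E3 ubiquitin ligase WWP2 alters the heart under angiotensin II. RNA came from 9 WT mice and 9 WWP2 Mut/Mut mice, which the labels also call KO. The mutants carry a CRISPR/Cas9 frame-shift mutation of Wwp2 on a C57BL/6J background, were bred by crossing heterozygotes, and were compared with wild-type littermates. The study's methods state that male mice were used and that the guide RNAs targeted an early coding exon, and the C-terminal isoform was not the target. All 18 mice received angiotensin II at 500 ng/kg/min for 28 days from a pump implanted at 8 weeks of age, and the series holds no saline-infused group. The hour at which each heart was collected is not given in the sources used here.

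The clock is a feedback loop that most cells run, cardiomyocytes included. BMAL1, the protein of Arntl, pairs with CLOCK or NPAS2 and activates genes that carry an E-box. Among these are the Per and Cry genes, whose proteins repress the pair, Nr1d1, whose protein REV-ERB alpha represses Arntl, and Dbp, a transcription factor that acts on D-boxes. In the rodent heart Arntl, Clock and Npas2 are known to peak at the opposite part of the day from Dbp, Nr1d1 and the Per genes, while Cry1 peaks later than the other repressors. The data therefore allow the question whether the genes known to be in antiphase also went in opposite directions from heart to heart at the single time each heart was taken.

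Promoter sequences were searched for the letters through which the loop is wired, because several of these genes, such as Arntl and Dbp, moved with or against each other across mice. The windows ran from 250 bases before to 50 bases after a RefSeq start site in GRCm38.p6, both strands were read, and 9 of the 10 genes, all but Per2, had a window. The E-box CACGTG was in 7.15% of 32851 windows of all genes and in the windows of Cry1 and Per1. A related E-box, CACGTT, was in 4.69% of windows and in those of Cry1, Cry2 and Nr1d1. AGGTCA, the core of the element bound by REV-ERB and ROR proteins, was in 16.3% of windows and in those of Arntl, Clock and Per1. The D-box TTANGTAA was in 2.32% of windows and, among the 9 genes, in that of Per3, which held 2 copies. These motifs do not overlap in the sequences shown, and a match describes letters and not a bound site. The 250 bases before the start sites of Per1 (chr11:69098699-69098948, plus strand), Cry1 (chr10:85185055-85185304, minus strand) and Per3 (chr4:151044666-151044915, minus strand) are shown as examples of an E-box, an E-box with its variant, and a pair of D-boxes, with the matches in capitals. For Arntl (chr7:113207530-113207559, plus strand), 30 bases around its AGGTCA match are shown, which lies just after the start site.
Per1: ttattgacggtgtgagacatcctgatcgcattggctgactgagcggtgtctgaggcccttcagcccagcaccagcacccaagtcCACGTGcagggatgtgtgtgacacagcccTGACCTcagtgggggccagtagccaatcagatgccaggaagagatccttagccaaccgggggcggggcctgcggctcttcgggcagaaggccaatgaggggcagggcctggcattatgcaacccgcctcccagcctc
Cry1: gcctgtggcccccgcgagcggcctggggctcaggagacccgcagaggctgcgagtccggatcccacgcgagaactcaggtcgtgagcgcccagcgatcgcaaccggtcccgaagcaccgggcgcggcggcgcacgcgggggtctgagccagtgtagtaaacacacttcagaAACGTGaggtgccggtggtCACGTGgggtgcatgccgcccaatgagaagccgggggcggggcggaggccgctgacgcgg
Per3: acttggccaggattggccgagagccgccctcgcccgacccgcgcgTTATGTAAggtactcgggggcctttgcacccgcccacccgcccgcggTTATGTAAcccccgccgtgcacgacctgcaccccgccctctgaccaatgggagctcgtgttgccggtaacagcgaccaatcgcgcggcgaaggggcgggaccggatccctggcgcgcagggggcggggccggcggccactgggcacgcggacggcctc
Arntl: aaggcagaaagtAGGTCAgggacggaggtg
In Per1 the capitals also mark TGACCT, which is AGGTCA on the other strand, and in Cry1 they mark AACGTG, which is CACGTT on the other strand.

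Libraries held 24566994 to 37451087 counts. Summed TPM of 8 ventricular cardiomyocyte markers ranged from 44368 to 59001, so heart muscle was borne out. The sums were 318 to 1181 for 5 atrial markers and 26.5 to 366 for 7 liver markers. Whether the ventricle was the left one was not tested. Wwp2 itself was at 3.83 to 6.01 TPM in WT and 1.19 to 3.00 TPM in WWP2 Mut/Mut mice, with no overlap. The authors' sample table has a column headed genebody_bottomhalf, whose definition it does not give. It is read here as a gene body coverage fraction and ran from 0.0288 to 0.0540. The RNA concentration listed was 1.68 ng/µl for WT mouse 43-3 against 88.6 to 320.9 ng/µl for the others. The mice were sequenced in 4 lanes of 4 or 5 mice, with 2 or 3 of each genotype per lane, too few for a correlation within a lane. Mouse names end in a suffix of 1, 2 or 3, whose meaning is not given in the sources used here, and lanes 1 and 2 held suffix 1 alone while lanes 3 and 4 held suffixes 2 and 3.

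Levels of the activator genes varied widely between hearts of the same genotype. Arntl (chr7:113207465-113314126, GRCm38, plus strand) had a lowest, median and highest level of 0.33, 5.22 and 7.71 TPM in WT hearts and at 0.70, 2.77 and 6.83 TPM in WWP2 Mut/Mut mice. The highest heart, WT mouse 43-3, stood 23.4-fold above the lowest, WT mouse 16-1, and the genotypes overlapped over nearly the whole range. Counts behind these levels ran from 33 to 828. The 5 lowest hearts, at 0.33 to 1.43 TPM, were WT mice 16-1 and 94-2 and WWP2 Mut/Mut mice 1-2, 8-2 and 62-1, and the values filled the range without a wide gap, the largest being 16.6% of the range of log2(TPM + 1). By the suffix of the mouse name, Arntl ran from 0.33 to 5.48 TPM in 9 mice with suffix 1, from 0.53 to 5.66 TPM in 4 with suffix 2 and from 2.94 to 7.71 TPM in 5 with suffix 3, and both genotypes were in each set. Clock, which encodes the main partner of BMAL1, had a lowest, median and highest level of 1.06, 2.58 and 6.80 TPM in WT and 1.42, 2.21 and 4.84 TPM in WWP2 Mut/Mut mice. Npas2, the alternative partner, was the lowest of the 10 genes, at 0.20, 0.99 and 1.77 TPM in WT and 0.21, 0.47 and 0.98 TPM in WWP2 Mut/Mut mice, on 35 to 266 counts. WT mouse 43-3 was the highest heart for all 3 activator genes.

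Dbp was the most abundant clock transcript and varied almost as much. Its lowest, median and highest levels were 11.8, 32.4 and 100.01 TPM in WT and 23.3, 35.9 and 75.7 TPM in WWP2 Mut/Mut mice. The hearts that were low in Arntl were high in Dbp: the 5 lowest in Arntl were the 5 highest in Dbp, at 64.4 TPM or above, and the next heart in Dbp was at 36.6 TPM. At the other end, WT mouse 43-3, the highest in Arntl, was the lowest in Dbp. Per2, a repressor of the loop, had a lowest, median and highest level of 0.36, 1.25 and 4.21 TPM in WT and 0.31, 1.03 and 2.24 TPM in WWP2 Mut/Mut mice. Per3, its paralog, was at 0.93, 1.69 and 8.73 TPM in WT and 1.02, 2.01 and 4.26 TPM in WWP2 Mut/Mut mice. WT mouse 94-2 was the highest heart for Per2, Per3 and Dbp, and 4 of the 5 hearts lowest in Arntl were among the 5 highest for Per2 and likewise for Per3. Per1, the Per gene most responsive to acute signals such as glucocorticoids, was at 2.39, 5.22 and 19.7 TPM in WT and 4.51, 7.08 and 9.03 TPM in WWP2 Mut/Mut mice. Its highest value, in WT mouse 45-1, lay well above the second highest, 10.9 TPM in WT mouse 94-2. WT mouse 45-1 also had the highest summed liver markers of all mice (366 TPM), the second highest fibroblast markers (399 TPM) and the fourth highest atrial markers (982 TPM), and their part in its Per1 level was not tested.

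Nr1d1 and the Cry genes had narrower ranges. Nr1d1 was at 15.8, 25.2 and 37.3 TPM in WT and 14.9, 26.0 and 34.1 TPM in WWP2 Mut/Mut mice (lowest, median and highest), a 2.51-fold range over all hearts. Cry2, a repressor that pairs with the PER proteins, was at 3.79, 4.83 and 6.30 TPM in WT and 3.12, 5.11 and 7.22 TPM in WWP2 Mut/Mut mice. Cry1, the other cryptochrome, was at 1.31, 1.98 and 3.25 TPM in WT and 0.82, 1.40 and 2.22 TPM in WWP2 Mut/Mut mice. Ranked by median TPM, the order was Dbp, Nr1d1, Per1, Cry2, Arntl, Clock, Per3, Cry1, Per2 and Npas2. Nr1d1 was above Per1 in 18 of 18 hearts and Per1 above Cry2 in 14, but the order of other neighbours changed between hearts: Dbp was above Nr1d1 in 12, Arntl above Clock in 11, Clock above Per3 in 11 and Per3 above Cry1 in 10. Against the 11336 genes with a mean of at least 1 TPM, whose median coefficient of variation was 23.9%, Per3 (74.7%), Per2 (72.1%), Arntl (66.8%), Dbp (62.3%), Per1 (54.5%) and Clock (54.03%) each had a larger coefficient of variation than 96.1% or more of genes. Cry1 (35.7%) exceeded 82.4% of genes, Nr1d1 (27.4%) 62.2% and Cry2 (24.2%) 51.2%. In bulk tissue, fewer cells of a type and less RNA per cell cannot be told apart.

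**Figure D1:**
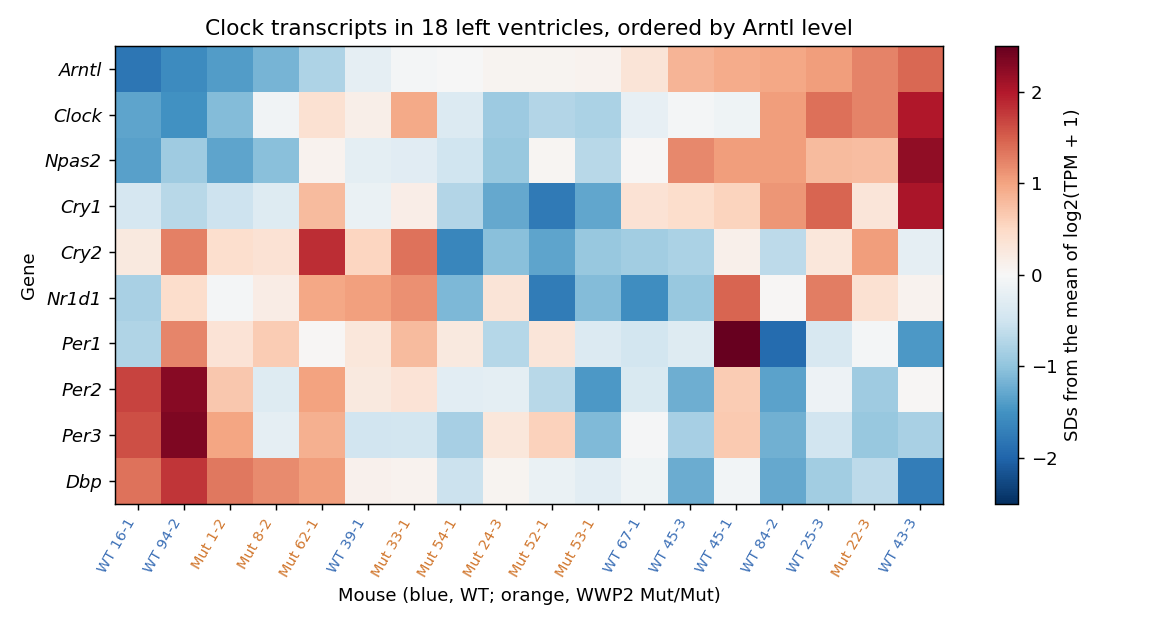
Level of each clock gene (rows) in each of 18 left ventricles (columns, WT labels in blue and WWP2 Mut/Mut labels in orange), as SDs from the gene's mean of log2(TPM + 1), with mice ordered from the lowest to the highest Arntl level. The 5 hearts at the left, lowest in Arntl, are the 5 highest in Dbp, and both genotypes lie at both ends.

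Arntl and Dbp moved in opposite directions across hearts more closely than any other antiphase pair. Pearson's r of log2(TPM + 1) was -0.94 and Spearman's rho -0.91 over 18 mice. The permutation p of both was 1e-05, the smallest that 100000 resamples can give, or 0.000225 for r and 0.00045 for rho after adjustment over the 45 pairs of the 10 genes. Without the 2 mice farthest from the median of Arntl, r was -0.91. Over WT hearts alone r was -0.94 (exact permutation p = 0.000372, n = 9) and over mutant hearts alone -0.92 (exact permutation p = 0.000215, n = 9). Removing genotype, lane and RNA concentration from both genes gave -0.93, removing gene body coverage gave -0.92, and removing the suffix of the mouse name, an alternative chosen after seeing the data, gave -0.89. Dbp had the lowest r with Arntl of 11335 genes compared. Part of the exons of Dbp, 539 bases or 18.01%, overlaps those of Sphk2 on the other strand, and whether counting used the strand is not given in the sources used here. Sphk2 was at 3.08 to 8.82 TPM and went the other way from Dbp, with r = -0.70 to Dbp and 0.86 to Arntl.

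Among the activator genes themselves the sign was positive in all 3 pairs. Most genes were positive with them as well: of the genes compared, 17.5% had a negative r with Arntl, 24.01% with Clock and 15.2% with Npas2, and the median r was 0.46, 0.59 and 0.58. Arntl and Npas2 had r = 0.87 (rho 0.82, permutation p = 1e-05, adjusted p = 0.000225), and without the 2 farthest mice r was 0.86. Arntl and Clock had r = 0.73 (rho 0.68, permutation p = 0.00053, adjusted p = 0.00265), with 0.62 without the 2 farthest mice, 0.87 over WT hearts and 0.44 over mutant hearts. Clock and Npas2 had r = 0.78 (rho 0.75, permutation p = 0.00014, adjusted p = 0.0009). Npas2 also went against Dbp, with r = -0.82 (rho -0.78, permutation p = 9e-05, adjusted p = 0.000675), as did Clock, with r = -0.69 (rho -0.64, permutation p = 0.00138, adjusted p = 0.00478).

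**Figure D2:**
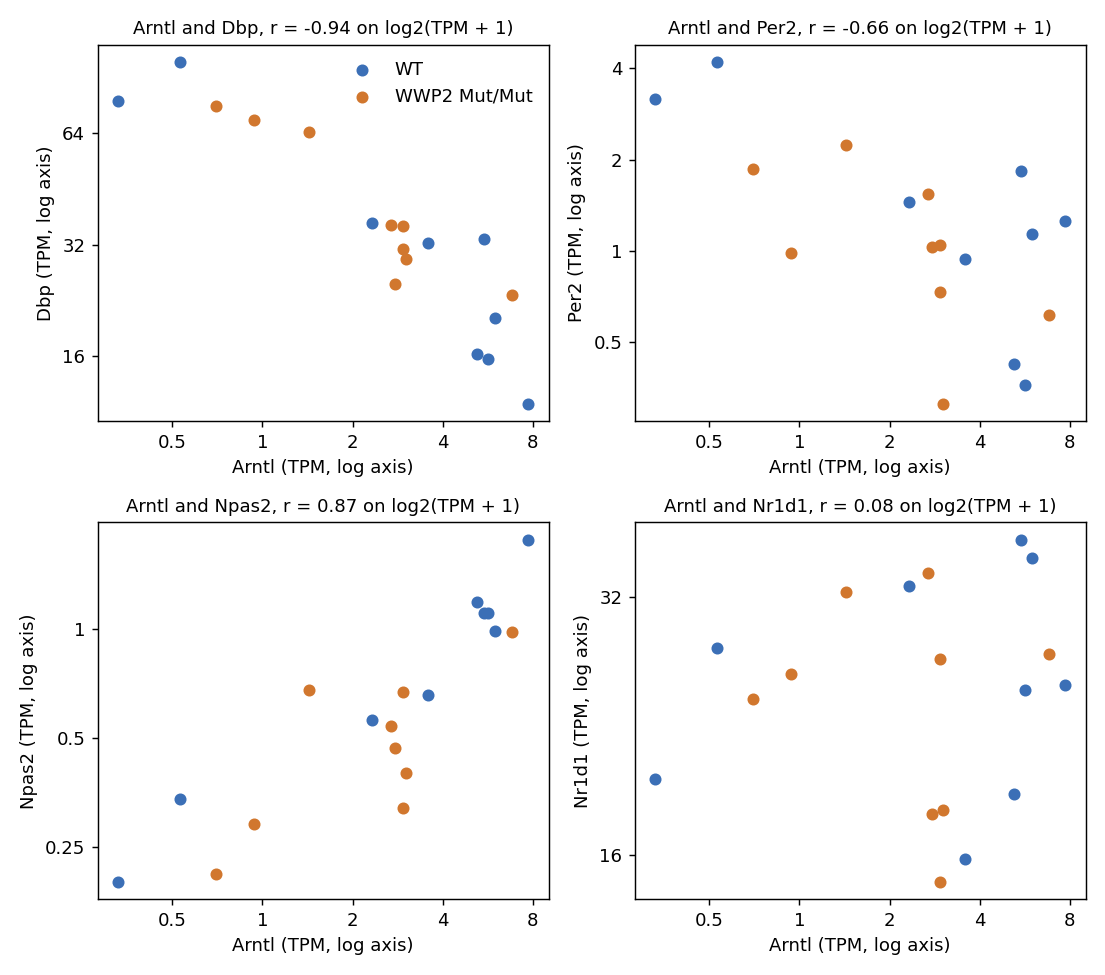
Level of Dbp, Per2, Npas2 and Nr1d1 against that of Arntl (TPM, both axes log scaled), 1 point per heart, WT in blue and WWP2 Mut/Mut in orange. Dbp falls and Npas2 rises with Arntl in both genotypes, Per2 falls with more scatter, and Nr1d1 shows no slope.

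Per2 and Per3 followed Dbp and went against Arntl, while for Per1 neither relation passed after adjustment. Arntl and Per3 had r = -0.73 (rho -0.67, permutation p = 0.00067, adjusted p = 0.00274), and -0.54 without the 2 farthest mice. For Arntl and Per2 r was -0.66 (rho -0.59, permutation p = 0.00287, adjusted p = 0.00923). That relation rested in part on the 2 mice farthest from the median of Arntl: without them r was -0.41 (permutation p = 0.112). For WT mice alone it was -0.80 (exact permutation p = 0.0140, n = 9), and for the mutants alone -0.62 (exact permutation p = 0.0750, n = 9). For Arntl and Per1 r was -0.26 (rho -0.43, permutation p = 0.306, adjusted p = 0.373), and leaving out WT mouse 45-1 brought it to -0.55. Per2 and Per3 tracked each other, with r = 0.86 (rho 0.79, permutation p = 2e-05, adjusted p = 0.0003). Dbp had r = 0.82 with Per3 (rho 0.81, permutation p = 3e-05, adjusted p = 0.000338), 0.73 with Per2 (rho 0.70, permutation p = 0.00063, adjusted p = 0.00274) and 0.47 with Per1 (rho 0.53, permutation p = 0.0503, adjusted p = 0.108).

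Nr1d1 did not follow the antiphase pattern on this scale. Its r with Arntl was 0.08 (rho 0.04, permutation p = 0.740, adjusted p = 0.771), and the sign depended on the scale: r was -0.35 on log2 CPM (permutation p = 0.151) and -0.30 after gene body coverage was removed (permutation p = 0.223). Leaving out WT mouse 16-1, 25-3 or 45-1 also turned the sign, with values no lower than -0.00747. Nr1d1 rather went with Cry2, at r = 0.71 (rho 0.70, permutation p = 0.00115, adjusted p = 0.00431). The exons of Nr1d1 share 263 bases, 8.55% of its exonic length, with Thra on the other strand, and Thra had r = 0.43 with Nr1d1 and 0.76 with Arntl. Of the 15 pairs of an activator gene with Dbp, Nr1d1 or a Per gene, 12 had a negative r, 7 of them with a permutation p under 0.05 before adjustment. The 3 positive ones were all with Nr1d1. Over WT hearts alone 12 of the 15 were negative with a median r of -0.68, 8 of them with an exact permutation p under 0.05, and over mutant hearts alone 11 were negative with a median r of -0.21, 1 of them with such a p. The difference between the genotypes in these counts was not tested. Within WT mice gene body coverage had r = -0.84 with Arntl, -0.94 with Clock and -0.80 with Npas2. It had 0.86 with Dbp, 0.85 with Per3, 0.68 with Per2, 0.35 with Per1 and -0.40 with Nr1d1. Within WWP2 Mut/Mut mice these were 0.02, -0.85, -0.32, -0.24, 0.22, -0.33, -0.43 and -0.78. Over all hearts, on log2 CPM or with gene body coverage removed, all 15 pairs were negative. The 10 pairs among Dbp, Nr1d1 and the Per genes were all positive, with r from 0.08 to 0.86.

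**Figure D3:**
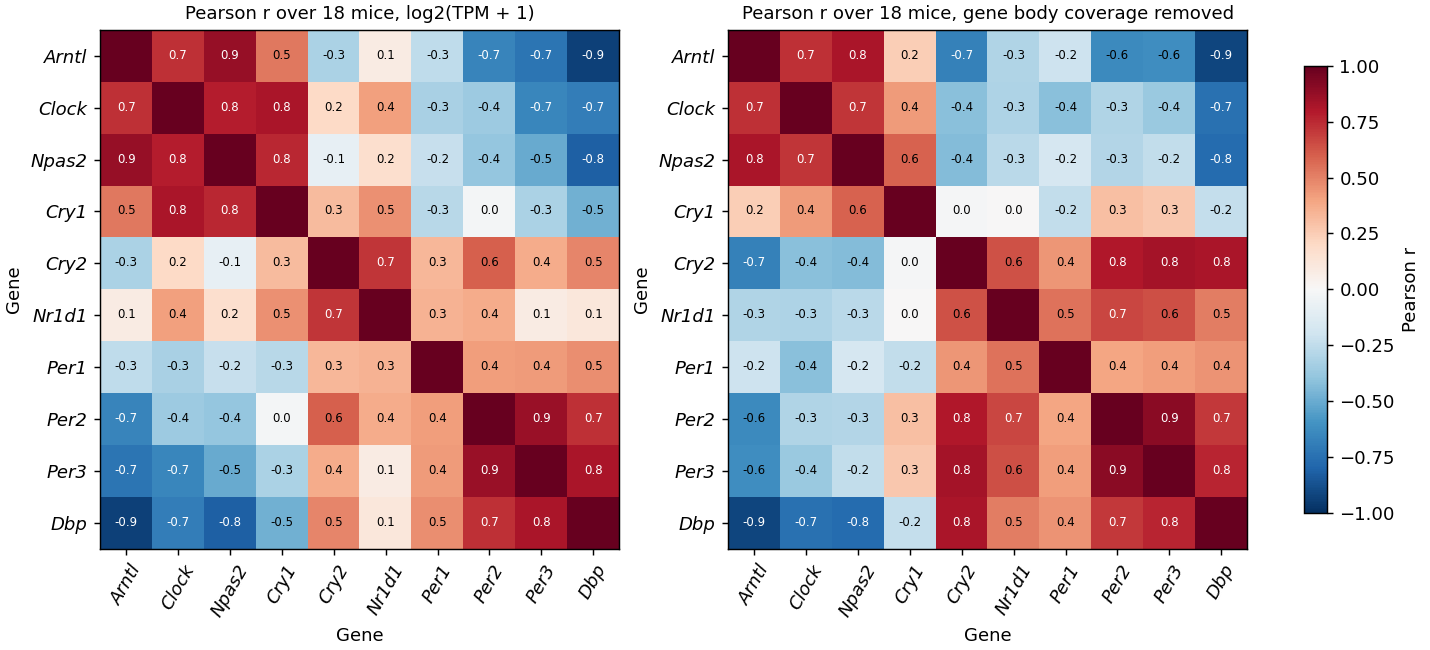
Pearson r between each pair of clock genes over 18 mice, on log2(TPM + 1) (left) and after gene body coverage was removed from both genes by a linear model (right), from blue at -1 to red at 1. The Arntl row is positive with Clock and Npas2 and most negative with Dbp in both panels, while Nr1d1 and Cry2 turn negative with all 3 activator genes only in the right panel.

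Over all hearts, on log2(TPM + 1), Cry1 was correlated most closely with Clock and Npas2. Its r with Arntl, Cry2 and Nr1d1 is also given for each genotype. Clock and Cry1 had r = 0.82 (rho 0.80, permutation p = 4e-05, adjusted p = 0.00036), and Npas2 and Cry1 0.76 (rho 0.74, permutation p = 0.0003, adjusted p = 0.00169). Arntl and Cry1 had r = 0.53 (rho 0.55, permutation p = 0.0238, adjusted p = 0.0630), which was 0.88 over WT hearts and -0.08 over WWP2 Mut/Mut mice. On log2 CPM the r of Cry1 was 0.58 with Clock, 0.37 with Npas2 (permutation p = 0.130) and 0.20 with Arntl (permutation p = 0.434). After gene body coverage was removed it was 0.43 with Clock, 0.59 with Npas2 and 0.25 with Arntl (permutation p = 0.313). Cry1 and Cry2 had r = 0.32 over all hearts, -0.48 over WT hearts and 0.91 over WWP2 Mut/Mut mice, where it was the highest r of the 45 pairs. Cry1 and Nr1d1 had r = 0.46 over all hearts, 0.17 over WT hearts and 0.81 over WWP2 Mut/Mut mice. These 2 differences between genotypes were not tested. Within WWP2 Mut/Mut mice gene body coverage had r = -0.92 with Cry1, -0.85 with Cry2 and -0.78 with Nr1d1. Within WT mice these were -0.82, 0.29 and -0.40. With gene body coverage removed over all hearts, Cry1 had r of -0.01 with Cry2 and 0.00327 with Nr1d1. Its part in the 2 relations within a genotype was not tested. In an edgeR quasi-likelihood fit across all genes, the slope of Cry1 on Arntl differed between genotypes by 0.06 on the log2 scale (SE 0.20, adjusted p = 1). Arntl and Cry2 had r = -0.32 (permutation p = 0.195), which became -0.67 after gene body coverage was removed (permutation p = 0.00335).

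Gene body coverage moved with several of these genes and is given beside them. Clock had r = -0.89 with it (rho -0.95, permutation p = 1e-05, adjusted p = 0.00028 over 28 relations to technical measures and marker sums) and Cry1 -0.78 (rho -0.80, permutation p = 0.0001, adjusted p = 0.0014). With the 2 mice farthest in coverage left out these were -0.91 and -0.77. For Npas2 r was -0.59 (permutation p = 0.0111), for Nr1d1 -0.58 (permutation p = 0.0117) and for Per3 0.58 (permutation p = 0.0111), each with an adjusted p of 0.0655. Clock and Cry1 had an absolute r of 0.8 or more with 30.1% and 17.2% of the 11335 genes compared, whereas Arntl reached that with 0.565% and Dbp with 0.168%. Arntl itself had r = -0.50 with coverage (rho -0.57, permutation p = 0.0335, adjusted p = 0.117) and Dbp 0.44 (rho 0.50, permutation p = 0.0674, adjusted p = 0.210). Within WT mice these were -0.84 and 0.86, and within WWP2 Mut/Mut mice 0.02 and -0.24. Clock and Cry1 had r = 0.43 once coverage was removed (permutation p = 0.0765). Summed fibroblast markers, 151 to 404 TPM, had r = 0.54 with Arntl (rho 0.47, permutation p = 0.0200, adjusted p = 0.0935) and -0.51 with Dbp (rho -0.49, permutation p = 0.0326, adjusted p = 0.117). The signs differed between genotypes: with Arntl r was 0.86 within WT and -0.29 within WWP2 Mut/Mut mice, and with Dbp it was -0.78 and 0.31. Over all mice with lane removed, fibroblast markers had r = 0.72 with Arntl and -0.61 with Dbp. Without the 2 farthest mice r was 0.39 with Arntl (permutation p = 0.130) and -0.43 with Dbp (permutation p = 0.0993). Cardiomyocyte, atrial, liver and erythroid marker sums, total counts, TPM sum, RNA concentration and an absorbance ratio of the RNA had r between -0.34 and 0.37 with Arntl and Dbp over all mice. Within a genotype some were larger: Arntl had r = -0.63 with TPM sum in WT (-0.57 over all mice but the 2 farthest, permutation p = 0.0211) and -0.56 with total counts in WWP2 Mut/Mut mice, where Dbp had 0.57. What part these measures have in the clock levels was not tested beyond the values given with coverage removed.

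**Figure D4:**
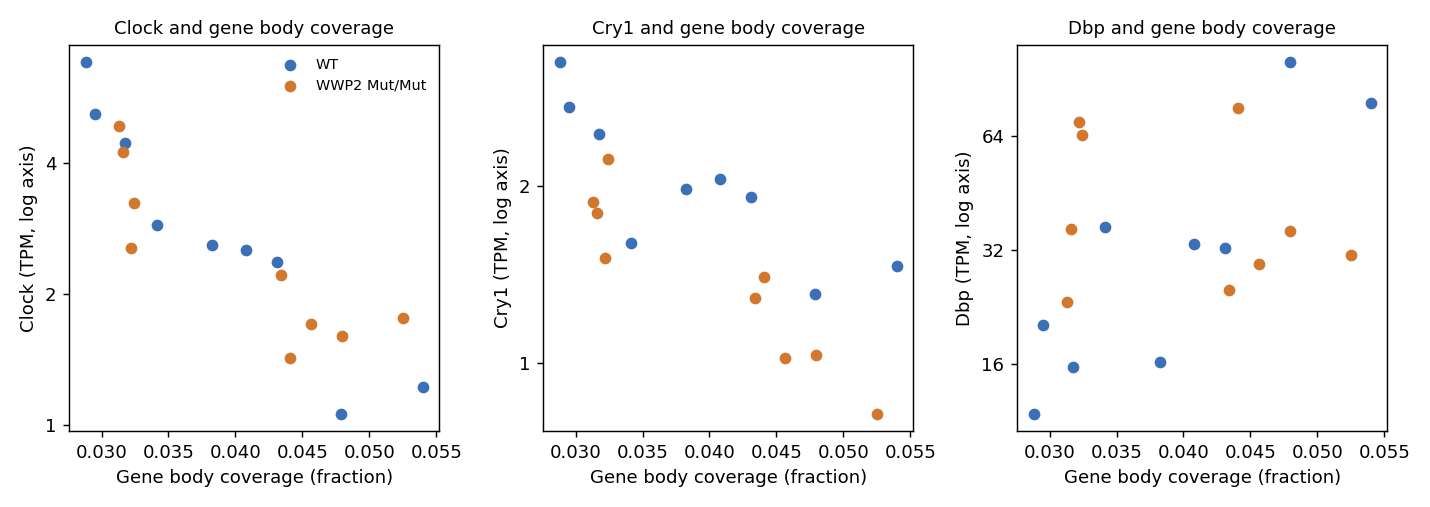
Levels of Clock, Cry1 and Dbp (TPM, log axis) against the authors' column read here as gene body coverage fraction, 1 point per heart, WT in blue and WWP2 Mut/Mut in orange. Clock and Cry1 fall with coverage in both genotypes (r = -0.89 and -0.78), and Dbp rises with it in WT mice alone (r = 0.86 against -0.24 in WWP2 Mut/Mut mice).

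Dbp, Per2, Per3, Npas2 and Clock passed when every gene was fitted on Arntl with genotype, lane and RNA concentration in the model. With the level of Arntl as a regressor in edgeR's quasi-likelihood test, 27 of 24803 other genes (0.109%) passed an adjusted p of 0.05, 16 rising and 11 falling with Arntl. Among the 27 were 5 of the other 9 clock genes. The counts depended on the tool. DESeq2 called 1987 of the 24803 genes on the same design, 6 of the 9 clock genes among them. On log2(TPM + 1) limma called 74 of the 24803, with 2 of the 9. Per SD of Arntl, Dbp fell by 0.96 on the log2 scale (SE 0.080, adjusted p = 2.08e-05), the smallest p of all genes tested, Per2 fell by 0.85 (SE 0.13, adjusted p = 0.0102) and Per3 fell by 0.78 (SE 0.13, adjusted p = 0.0188). Npas2 rose by 0.66 (SE 0.091, adjusted p = 0.00497) and Clock rose by 0.45 (SE 0.078, adjusted p = 0.0236). The other 4 did not pass in edgeR: the slope was -0.23 for Cry2 (adjusted p = 0.118, against 0.0219 by DESeq2, which called it), 0.15 for Cry1 (adjusted p = 0.194), -0.30 for Per1 (adjusted p = 0.233) and -0.12 for Nr1d1 (adjusted p = 0.407). Single hearts decided how many of the 5 passed. Without WT mouse 94-2 only Dbp did, without WWP2 Mut/Mut mouse 22-3 there were 2, and without WT mouse 16-1, 25-3 or 84-2 there were 3. Without WT mouse 94-2 the slopes were 0.75 for Npas2, -0.73 for Per2, -0.64 for Per3 and 0.44 for Clock, and without WWP2 Mut/Mut mouse 22-3 they were 0.66, -0.85, -0.77 and 0.43. The slope of Per1, which was not called, was -0.08 without WT mouse 94-2. Dbp passed and fell in every one of the 18 fits that left out a heart, by 0.92 to 1.03 on the log2 scale. With gene body coverage added to the model 2 passed, Dbp (-0.93, adjusted p = 0.000569) and Npas2 (0.69, adjusted p = 0.0169), while the slope was -0.84 for Per2 (adjusted p = 0.117), -0.60 for Per3 (adjusted p = 0.309) and 0.26 for Clock (adjusted p = 0.180). Of the genes not called, the slope of Cry1 was then 0.06 and that of Nr1d1 -0.24. With the suffix of the mouse name added, Dbp (-0.85, SE 0.11, adjusted p = 0.0191) was the 1 gene called. The slope was then -0.88 for Per2, -0.79 for Per3, 0.65 for Npas2 and 0.37 for Clock, with adjusted p from 0.197 to 0.642, and 0.02 for Per1. With lane as the covariate beside genotype, Clock was not called (0.42, adjusted p = 0.0537). On the scale of limma, log2(TPM + 1), which compresses low levels, the slopes were -0.78 for Dbp and 0.29 for Npas2, which passed, and -0.39 for Per2, -0.51 for Per3, 0.45 for Clock and -0.07 for Cry2, which did not.

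The regressor was then exchanged for each other clock gene in turn. With Dbp, 18 genes (0.0726%) were called, among them Arntl (-1.13 per SD, adjusted p = 0.000778), Per3 (0.87, adjusted p = 0.00201), Per2 (0.92, adjusted p = 0.00254) and Npas2 (-0.63, adjusted p = 0.0226). The Arntl and Dbp fits shared 14 genes, 51.9% of the Arntl calls and 77.8% of the Dbp calls. Npas2 as regressor called 17 genes (0.0685%), with Dbp and Arntl among them, and Per3 called 964 (3.89%), including Clock, Arntl, Per2 and Dbp. Per2 called a single gene (0.00403%), which was Per3 (0.85 per SD, adjusted p = 0.0238). Clock and Cry1, the members with the largest absolute r with gene body coverage, called 28.6% and 24.9% of all genes, with 7 and 6 of 9 clock genes among them. Nr1d1 called 4 genes (0.0161%) and no clock gene. Per1 (0%) and Cry2 (0%) called none at all in edgeR. An unadjusted p under 0.05 was found for 1541 genes (6.21%) with Per1 and for 2318 genes (9.35%) with Cry2. For Nr1d1, Per1 and Cry2 as regressors no other tool was run.

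Other genes of the clock and its outputs were taken from a list of 18 further genes. With Arntl as regressor 2 of the 18 passed in edgeR, against 0.109% of all genes, both falling: Ciart, a repressor of BMAL1 and CLOCK activity, fell by 0.90 per SD (SE 0.12, adjusted p = 0.00242), and Tef, a D-box factor related to Dbp, fell by 0.43 (SE 0.054, adjusted p = 0.00242). An unadjusted p under 0.05 was found for 9 of the 18, against 21.7% of all genes. The median slope was -0.06, against -0.00127 over all genes. With Dbp as regressor, which called 0.0726% of all genes, Ciart (0.99, adjusted p = 4.29e-05), Tef (0.45, adjusted p = 0.000291) and Hlf, the remaining D-box factor of the family (0.35, adjusted p = 0.0428), rose. Of 15 genes known for time-of-day or glucocorticoid response, Klf15, Fkbp5 and Pdk4 among them, none passed with Arntl in edgeR, and 5 had an unadjusted p under 0.05. Their median slope was 0.16.

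Among the genes most like Arntl, by Pearson r of log2(TPM + 1) over 18 mice among genes with a mean of at least 1 TPM, were Tmem171 (0.94), Leo1 (0.92), Lingo3 (0.92) and Unc119b (0.91). Those most opposed were Dbp (-0.94), Tcap (-0.90), Tspan4 (-0.88), Ciart (-0.82) and Tef (-0.75). Tcap encodes telethonin, a Z-disc protein of the sarcomere, and was at 819 to 2931 TPM. It fell by 0.61 on the log2 scale per SD of Arntl (SE 0.066, adjusted p = 0.000336), and Tspan4 fell by 0.54 (SE 0.056, adjusted p = 0.000318). Dbp was most like Ciart (0.89), Tspan4 (0.88), Tcap (0.86), Per3 (0.82) and Tef (0.79), and among the genes most opposed to it were Arntl (-0.94), Nfil3 (-0.88), which encodes a D-box repressor, Tmem171 (-0.88) and Leo1 (-0.86). The median r over all genes compared was 0.46 with Arntl and -0.38 with Dbp, so genes as a whole leaned to one side of both.

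Genotype made no difference that passed the test for any clock gene. Of the 10, edgeR called 0, against 1 of 24804 genes (0.00403%), which was Wwp2, and DESeq2 also called 0 of the 10. A single clock gene, Cry1, had an unadjusted p under 0.05: its level was 2.08 ± 0.630 TPM in WT and 1.44 ± 0.460 TPM in mutant hearts (SD, n = 9 each). The log2 fold change of Cry1 was -0.57 (SE 0.15, unadjusted p = 0.00156 and adjusted p = 0.837 by edgeR), and it was -0.37 with lane as the covariate alone and -0.38 with no covariates, fits that leave out the RNA concentration. The two-sided exact permutation test of its TPM over 48620 divisions of the mice gave p = 0.0243, and 8 of 9 WWP2 Mut/Mut hearts were below the WT median, as were 9 of 9 for Npas2 and 8 of 9 for Arntl. Below the WT median were 6 of 9 WWP2 Mut/Mut hearts for Clock and for Per2, and 4 of 9 for Cry2, Nr1d1 and Dbp. For Per3 it was 3 of 9 and for Per1 1 of 9. The groups overlapped for Cry1 as for the other 9 genes. Npas2 was 0.881 ± 0.489 TPM in WT and 0.507 ± 0.241 TPM in WWP2 Mut/Mut mice (exact permutation p = 0.0541, log2 fold change -0.47, SE 0.35, adjusted p = 1), and its fold change was -0.29 without WWP2 Mut/Mut mouse 24-3. The largest fold change of the 10 in edgeR was that of Per2, -0.86 on the log2 scale (SE 0.55, adjusted p = 1), at 1.64 ± 1.28 TPM in WT and 1.15 ± 0.620 TPM in WWP2 Mut/Mut mice, and it was -0.34 without WT mouse 94-2 and -0.26 with lane as the covariate alone. Arntl was 4.09 ± 2.56 TPM in WT and 2.69 ± 1.80 TPM in WWP2 Mut/Mut mice (exact permutation p = 0.195). Its log2 fold change in edgeR was -0.12, and it was -0.41 with no covariates, -0.41 with lane as the covariate alone and -0.40 without WT mouse 16-1. Dbp was 38.2 ± 30.6 TPM in WT and 43.4 ± 20.5 TPM in WWP2 Mut/Mut mice (exact permutation p = 0.688). For the remaining 6 genes, Per2 among them, the exact permutation p ran from 0.334 to 0.943. The SE of the Arntl and Dbp fold changes was 0.51 and 0.54 on the log2 scale, against 0.15 for Cry1, so only large differences in the former could have been seen.

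**Figure D5:**
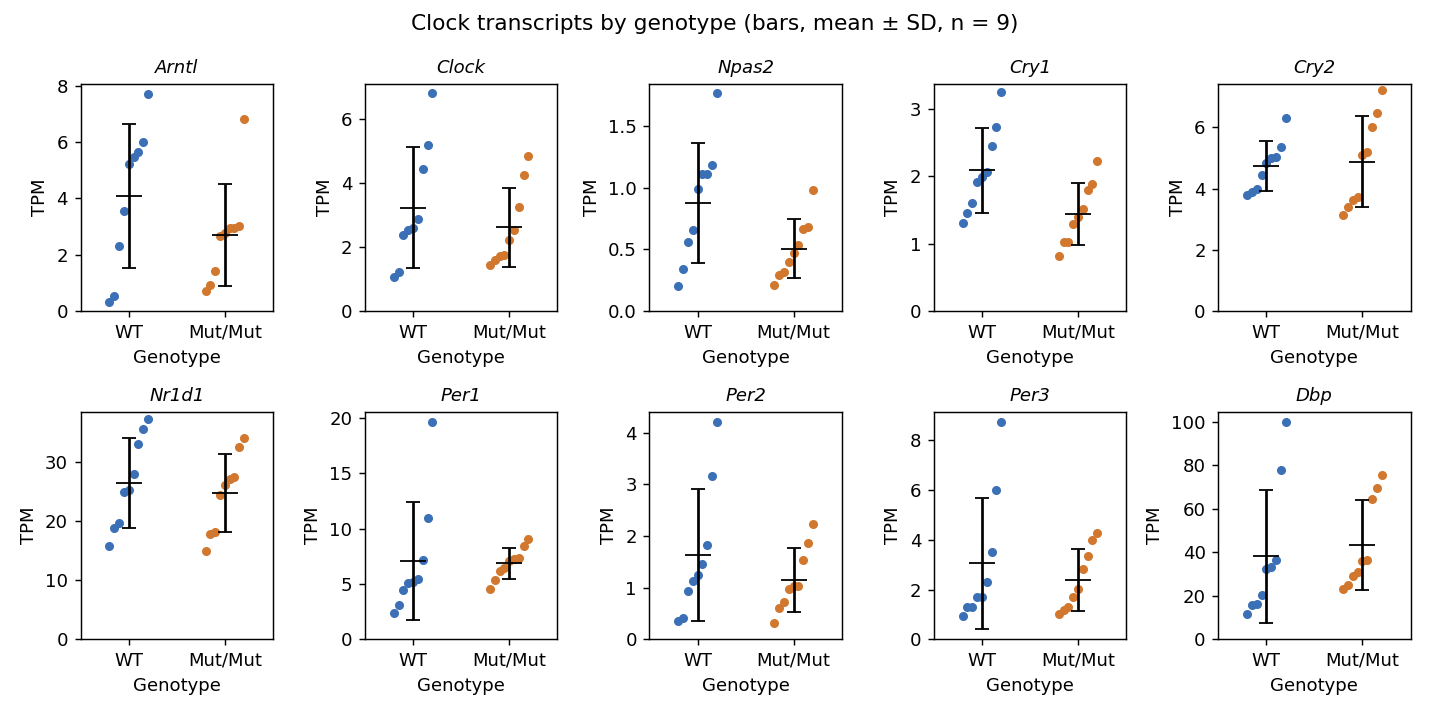
Level of each clock gene (TPM) in WT (blue) and WWP2 Mut/Mut (orange) hearts, 1 point per heart, with the mean as a horizontal line and error bars of 1 SD (n = 9 per genotype). The genotypes overlap for all 10 genes, and Cry1 has the lowest exact permutation p (0.0243).

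No difference between genotypes in the slope on Arntl passed the test for a clock gene. The interaction of Arntl level and genotype was tested by edgeR across 24803 genes and called 1 (0.00403%) and 0 of the 9 clock genes, none of which had an unadjusted p under 0.05, and DESeq2 called 0 of the 9. For Dbp the difference in slope was 0.01 (SE 0.26) and for Npas2 -0.03 (SE 0.27), both with an adjusted p of 1. Among the other 7 it ran from -0.36 for Per1 (SE 0.47) to 0.27 for Cry2 (SE 0.19), so differences of moderate size could not have been seen. With the level of Arntl added as a covariate to the genotype comparison, edgeR again called 1 gene. Over the 10 genes, the first principal component of log2(TPM + 1), each gene scaled to equal variance, held 52.03% of the variance, with Dbp (-0.42) and Arntl (0.41) carrying the largest loadings. The second held 27.0%, led by Nr1d1 (0.54) and Cry2 (0.52). Both components had r = -0.62 with gene body coverage.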

How the data were processed

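Left ventricular poly(A) RNA of 18 mice was sequenced with a directional kit. Per the study's methods, the authors aligned reads with STAR 2.5.2b to mouse GRCm38 and quantified Ensembl genes with RSEM 1.2.31, and they left out ribosomal and mitochondrial genes. The deposited tables hold expected counts, of which 5.11% were not whole, and TPM, whose sums per mouse were 671770 to 826381. The authors' sample table gives lane, RNA concentration and the column genebody_bottomhalf, read here as a gene body coverage fraction. The concentration listed for WT mouse 43-3 was used as given.

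Members and gene lists were chosen with earlier results of these data known. Expected counts were rounded and tested with edgeR 4.0.16 (TMM, quasi-likelihood, genes with more than 1 count in all, RNA concentration and lane as covariates, Benjamini-Hochberg adjustment over all genes tested, threshold 0.05). As regressor, log2(TPM + 1) of a clock gene was scaled to mean 0 and SD 1, with genotype as a further covariate. Correlations used log2(TPM + 1) and 100000 permutations, or all 362880 with 9 mice. DESeq2 1.42.0 and limma 3.58.1 were run as alternatives, and the code was tested on simulated data. Each mouse is 1 sample. Depth was 24566994 to 37451087 counts, and Arntl rested on at least 33 counts. No mouse number is shared between genotypes, and the suffix of the mouse name, whose meaning is not given in the sources used here, was tried as a further covariate after seeing the data. Named genes were the members, further clock and time-of-day genes that passed in the Arntl or genotype fit, the 5 most and least correlated genes with Arntl and Dbp (1 of these is not reported here), and Wwp2. Hlf, the 3 examples of the time-of-day list, and neighbours sharing exons were named after their values were seen.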

Additional observations from a re-analysis of the deposited data

Results flagged for a closer look

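Lowest and highest values of each of the 10 clock genes were examined in both groups of 9 mice by Dixon's gap test, 20 groups in all, of which chance flags about 1 in 20. Arntl in WWP2 Mut/Mut mouse 22-3, at 6.83 TPM, stood apart from the other 8 mutants by 0.623 of the group's range. Without this mouse the Arntl and Dbp correlation was -0.94. Per1 in WT mouse 45-1, at 19.7 TPM, stood apart by 0.506 of the WT range, and without this mouse the genotype log2 fold change of Per1 was 0.43 in place of 0.08.

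The relation to Arntl differed between genotypes for Saa2, an acute-phase gene with a close paralog (edgeR interaction, adjusted p = 0.0159). Saa2 had 1325 counts in WT mouse 25-3, at most 6 counts in any other mouse and 0 counts in 12 mice, and without WT mouse 25-3 no gene was called.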

How the results depend on the processing

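Arntl and Dbp kept a negative correlation with p under 0.05 under all planned settings, from -0.957 to -0.924 with each mouse left out. Dbp passed with Arntl as regressor under all planned settings of that fit.

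Genes called with Arntl as regressor, 27 at first (16 up, 11 down), were 1987 with DESeq2, 46 without covariates (29 up, 17 down), 13 with gene body coverage added (6 up, 7 down), 1 with the suffix of the mouse name added (chosen after seeing the data), 74 with limma on log2(TPM + 1) (67 up, 7 down) and 111 with a pseudocount of 0.1 (102 up, 9 down). Leaving out each mouse gave 4 (WT mouse 94-2) to 62 (WWP2 Mut/Mut mouse 52-1). The other mice that moved it by more than 1.5 times were WT 16-1 (11), 43-3 (16), 45-1 (42) and 84-2 (14) and WWP2 Mut/Mut 1-2 (16), 8-2 (55) and 22-3 (11). Clock genes called, 5 at first, were 6 with DESeq2 (Cry2 added), 4 with lane alone (Clock lost), 2 with gene body coverage added, 1 with the suffix added, 2 and 3 with limma (pseudocount 1 and 0.1) and 1 to 5 with each mouse left out. Genes called between genotypes were 4 with DESeq2 and 1 to 2 with each mouse left out (2 without WT mouse 84-2 or WWP2 Mut/Mut mouse 1-2), with 0 clock genes throughout. Interaction calls, 1 at first, were 43 with DESeq2, 0 with limma, with the filter, with lane alone and with no covariates, and 0 to 2 with each mouse left out (0 without WWP2 Mut/Mut mouse 1-2, 8-2, 22-3, 24-3 or 52-1 or WT mouse 25-3, 45-3 or 67-1, 2 without WWP2 Mut/Mut mouse 62-1 or WT mouse 16-1). The causes were not tested.

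Arntl and Nr1d1 reversed to -0.354 on log2 CPM, -0.302 with gene body coverage removed and -0.139 in WWP2 Mut/Mut mice, with -0.00747 to 0.141 when each mouse was left out (-0.00747 without WT 16-1, -0.000333 without WT 25-3 and -2.56e-05 without WT 45-1). Arntl and Per2 lost significance in WWP2 Mut/Mut mice (-0.617) and without the 2 farthest mice (-0.415), with -0.728 to -0.581 with each mouse left out. Negative antiphase pairs numbered 12 to 13 with each mouse left out and 11 both in WWP2 Mut/Mut mice and without the 2 farthest mice.

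Genotype log2 fold changes near 0, with an adjusted p of 0.938 or more in each, changed sign. Arntl went to 0.22 with gene body coverage and 0.0014 with limma (pseudocount 0.1), Clock to 0.15 with coverage and 0.0014 with Arntl added, Cry2 to 0.133 and 0.153 and Nr1d1 to 0.0545 and 0.0699 (no covariates, then lane alone), and Dbp to 0.213 and 0.285 likewise, 0.095 and 0.104 with limma and 0.115 with Arntl added. The slope of Nr1d1 on Arntl was 0.0188 and 0.0189 with limma. With the suffix added, the genotype value of Cry2 was 0.00484, that of Dbp 0.317, and the slope of Per1 on Arntl 0.0164. Leaving out 1 mouse turned Arntl to 0.0471 (WWP2 Mut/Mut 24-3), 0.0424 (WWP2 Mut/Mut 8-2), 0.0664 (WT 45-1) and 0.0513 (WT 84-2), Clock to 0.0607 (WWP2 Mut/Mut 24-3) and 0.0728 (WT 25-3), Per1 to -0.00901 (WWP2 Mut/Mut 52-1), -0.0434 (WWP2 Mut/Mut 8-2), -0.00483 (WT 16-1), -0.0074 (WT 25-3) and -0.0884 (WT 84-2), Cry2 to 0.0446 (WWP2 Mut/Mut 52-1), 0.0139 (WWP2 Mut/Mut 54-1), 0.0477 (WT 16-1), 0.0182 (WT 39-1) and 0.0422 (WT 94-2), and Nr1d1 to 0.0466 (WWP2 Mut/Mut 52-1), 0.00367 (WWP2 Mut/Mut 53-1), 0.00799 (WWP2 Mut/Mut 54-1) and 0.00961 (WT 39-1). Dbp turned to 0.0261, 0.15, 0.119, 0.165 and 0.0619 without WWP2 Mut/Mut 1-2, 22-3, 33-1, 52-1 and 54-1, and to 0.351, 0.0824 and 0.487 without WT 16-1, 39-1 and 94-2.

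Depth limits Npas2 and Arntl most, at 35 and 33 counts in the lowest heart. No paired analysis was possible because the genotypes share no mouse number. The suffix of the name recurs in both genotypes, but nothing in the sources used here says what it marks, and it names sets of 4 to 9 mice and no pairs.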
